A study of Mus musculus with 24 samples.

Results

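The cytosolic ribosomal protein genes of the mouse were followed through 24 bulk RNA-seq libraries that varied a herbicide exposure and a T cell stimulus. Members were taken by name: genes with a protein-coding transcript and a symbol of the Rpl, Rps, Rplp or Rpsa type, leaving out the ribosomal S6 kinases (Rps6k). The rule found 94 of the 55401 genes in the files. Of these, 77 are core ribosomal proteins, 8 are paralogs of a core protein (Rpl3l, Rpl7l1, Rpl10l, Rpl22l1, Rpl36al, Rpl39l, Rps27l and Rps27rt) and 7 are named as pseudogenes. The remaining 2, Rps19bp1 and Rps23rg1, match the name pattern but are not ribosomal proteins. By name, 57 members belong to the large and 37 to the small subunit. They lie on 20 chromosomes, 4 of them on X. Fau and Rack1 also encode ribosomal proteins, but their symbols fall outside the rule, so they are described beside the members.

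The libraries were made by SMART-seq2, a full-length protocol for small RNA inputs, from male C57BL/6 mice of 11 weeks. Mice received propyzamide, a herbicide that disturbs plant microtubules, or the vehicle alone. Within each exposure, 1 group was not stimulated and 2 groups were examined 3 h or 24 h after an antibody to CD3, which triggers the T cell receptor. The 6 groups were therefore vehicle unstimulated, vehicle 3 h, vehicle 24 h, propyzamide unstimulated, propyzamide 3 h and propyzamide 24 h, with 4 libraries in each. No source used here gives the tissue, a cell sort or the doses. Replicate numbers follow accession order only, because the labels hold none, and they pair nothing. Nothing states whether 1 library is 1 animal, so p-values measure only the spread between these libraries.

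Each ribosome is built from ribosomal RNAs and one copy of nearly every cytosolic ribosomal protein, apart from the P proteins of the stalk, which sit on the large subunit in several copies. The small subunit reads the messenger RNA and the large subunit joins amino acids. Ribosomal protein messages are abundant, and most begin with a cytosine followed by a run of pyrimidines, the 5′ TOP element, through which mTOR signalling controls their translation. Lymphocytes that are activated through their antigen receptor are known to enlarge and to make more ribosomes before they divide.

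The first bases of these genes are shown because a pyrimidine tract at the start is the sequence feature that ribosomal protein messages are known to share. Windows of 30 bases, 15 before and 15 after the annotated start, were read from RefSeq promoters on build GRCm38.p6, each from the strand of the gene. Capitals mark CTTTC, or else the letters CTTCC, or else the letters CTCTT, and these motifs can overlap each other. The 6 windows with such letters belong to Rps27 (chr3:90213634-90213663, minus strand), the member of highest level, and to Rpl35 (chr2:39005117-39005146, minus), Rps26 (chr10:128626492-128626521, minus), Rplp2 (chr7:141447636-141447665, plus), Rps6 (chr4:86857353-86857382, minus) and Rps18 (chr17:33955651-33955680, minus). The 2 windows without them belong to Rpl4 (chr9:64173372-64173401, plus), which had the smallest p among the members, and to the paralog Rpl36al (chr12:69184053-69184082, minus).
Rps27: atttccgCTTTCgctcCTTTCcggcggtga
Rpl35: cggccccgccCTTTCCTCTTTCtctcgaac
Rps26: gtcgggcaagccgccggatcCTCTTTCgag
Rplp2: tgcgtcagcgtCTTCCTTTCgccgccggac
Rps6: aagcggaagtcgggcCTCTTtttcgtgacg
Rps18: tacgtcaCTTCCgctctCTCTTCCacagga
Rpl4: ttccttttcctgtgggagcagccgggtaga
Rpl36al: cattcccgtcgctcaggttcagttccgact

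A start window was found for 67 of the 94 members, in 79 windows, since some genes have more than 1. On the strand of the gene, 31 of these 79 windows (39.2%) held at least 1 of the 3 motifs, against 12.9% of all 32851 windows. CTTTC stood in 19 of them (24.1%, against 4.05% of all windows), CTTCC in 14 (17.7%, against 6.63%) and CTCTT in 13 (16.5%, against 3.96%). On the opposite strand 15.2% of the members' windows and 13.5% of all windows held a motif. A match describes letters only. The window of Rpl4 shows that a pyrimidine run can lack all 3 motifs.

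Total counts ran from 438750 to 2072030 in 23 libraries and reached 9812460 in propyzamide 24 h replicate 3. Named protein-coding genes held a small part of the counts, with group medians from 4.59% to 8.29% and 29.9% in that deepest library. A second library stood apart: propyzamide 3 h replicate 3 held 172 counts in all 94 members together, against 1791 to 10686 in the 22 other libraries and 184991 in the deepest. It had counts for 51 members, where the median library had counts for 83. The shares, and the calls in propyzamide at 24 h against 3 h, are therefore given with and without them. TPM means, counts pooled over libraries and most single-gene values include them. The 6 groups were sequenced with 2 second index sequences: the unstimulated groups and vehicle 3 h carried one, and propyzamide 3 h and both 24 h groups carried the other. The comparisons of 24 h with 3 h in propyzamide, of propyzamide with vehicle at 24 h and unstimulated, and of 3 h with unstimulated in vehicle, were made within 1 index. In vehicle, 24 h against 3 h cannot be told apart from the index, nor can propyzamide against vehicle at 3 h, nor any comparison of a 24 h group, or of propyzamide 3 h, with an unstimulated group. The same holds for the difference between exposures in the response at 3 h, where propyzamide 3 h alone carried the other index.

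Markers of several cell types were present. All 11 B cell markers had counts in every group, and 15 of 15 T cell markers in every group but vehicle 3 h, where Lat was at 0. The 18 markers of intestinal epithelium were all found, and Apoa4 and Phgr1 were at 0 in vehicle 24 h. In bulk libraries, fewer cells of a type and less RNA per cell cannot be told apart.

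Levels between genes were compared per length, as TPM, a level scaled for transcript length and library depth, averaged over the 24 libraries. The deepest library weighs on these means: its members summed to 25291 TPM, against 424 to 11739 TPM in the other libraries. Medians over the 24 libraries were lower, at 246 TPM for Rps27 and 114 TPM for Rpl41. Rps27, a small subunit protein with a zinc finger, had the highest level at 280 TPM and was the highest member in 18 of the 24 libraries. Rpl41, which encodes the smallest and most basic ribosomal protein, had 161 TPM. Rps29, another small zinc-binding protein, had 147 TPM and was the highest member in 1 library. Rps27 and Rps29 were among the 10 highest members in all 24 libraries.

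Also among the 10 highest were Rplp1, an acidic stalk protein, at 140.0 TPM, Rps28 at 129 TPM, Rps19 at 115 TPM, Rps14 at 107 TPM, and Rps15 and Rps18 at 103 TPM each. Rps19 and Rps14 are the genes known from Diamond-Blackfan anaemia and from the 5q- syndrome of the blood. Together the 10 highest members held 29.3% of the members' TPM. The median was 57.0 TPM over the core members and 5.13 TPM over the paralogs.

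**Figure D1:**
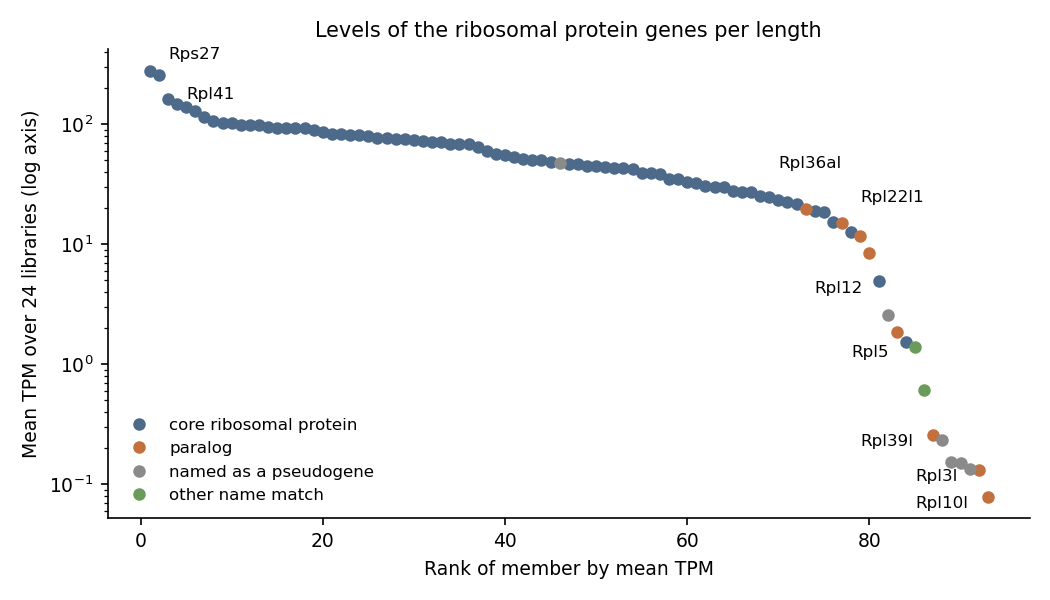
Mean TPM over 24 libraries (vertical axis, log scale) of the members with a value above 0, ranked from highest to lowest, each point 1 gene. Core proteins fill the plateau from Rps27 at 280 TPM downward, and paralogs such as Rpl39l (0.260 TPM) lie in the steep part at the right.

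At the lower end, Rpl36a-ps1 had 0 counts in all 24 libraries, where up to 3 counts are compatible with a count of 0. Rpl10l and Rpl3l, paralogs known from testis and from muscle, had 0.0791 and 0.132 TPM, and the pseudogene-named Rps18-ps6 and Rpl9-ps1 had 0.135 and 0.150 TPM. Rpl39l, also known from testis, had 0.260 TPM beside its core partner Rpl39. Among core members the lowest were Rpl5, a protein that carries 5S ribosomal RNA into the large subunit, at 1.53 TPM, and Rpl12, of the stalk base, at 4.94 TPM. Both have near-copies elsewhere in the genome, described below. Counts were present in all 24 libraries for 48 members, 47 of them core and the other Rpl36al.

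**Figure D2:**
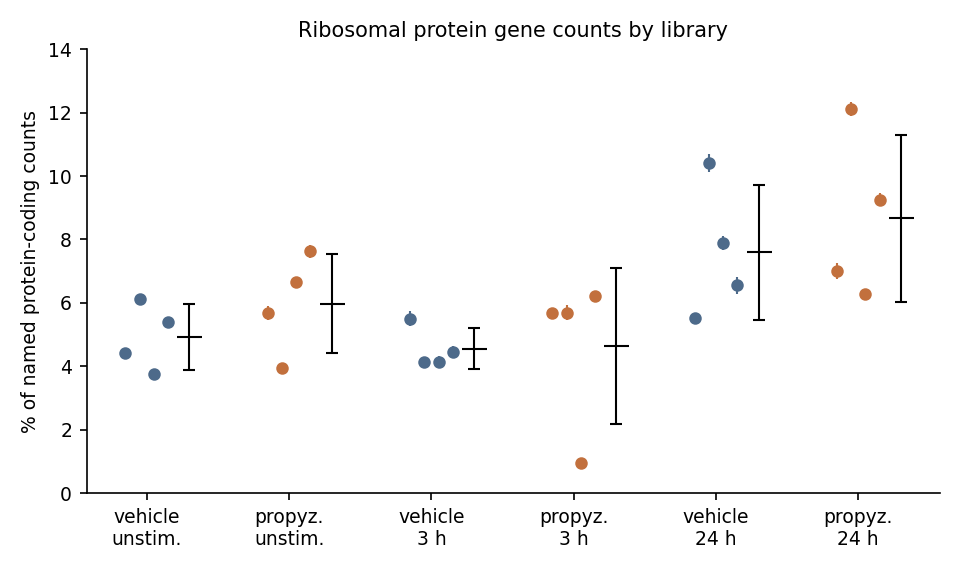
Percent of named protein-coding counts that fell in the 94 members (vertical axis, from 0) in each of 24 libraries, by group (horizontal axis), with points for libraries (their short lines are exact 95% binomial intervals) and the group mean with its SD. The 24 h libraries lie above the 3 h libraries of the same exposure, and propyzamide 3 h replicate 3 lies at 0.957%.

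The members' share of the named protein-coding counts was highest in the 24 h groups. It was 5.51%, 10.4%, 7.89% and 6.55% in the vehicle 24 h libraries (7.59% ± 2.11, SD, n = 4), and 5.50%, 4.14%, 4.13% and 4.44% at 3 h (4.55% ± 0.651, n = 4). In propyzamide it was 7.003%, 12.1%, 6.30% and 9.25% at 24 h (8.67% ± 2.62, n = 4), and 5.68%, 5.70%, 0.957% and 6.21% at 3 h (4.64% ± 2.46, n = 4). In both exposures the 24 h and 3 h libraries did not overlap, but narrowly: 5.51% stood against 5.50% in vehicle, and 6.30% against 6.21% in propyzamide.

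Unstimulated libraries held 4.43%, 6.13%, 3.76% and 5.41% in vehicle (4.93% ± 1.05, n = 4) and 5.68%, 3.94%, 6.65% and 7.63% in propyzamide (5.98% ± 1.57, n = 4). These overlapped each other and the 24 h groups. The share of 0.957% in propyzamide 3 h replicate 3 had an exact 95% binomial interval of 0.820% to 1.11%, which covers counting error only. Without this library the propyzamide 3 h share was 5.86% ± 0.304 (n = 3), and without the deepest library the propyzamide 24 h share was 9.46% ± 2.57 (n = 3). No test was run on the share.

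The balance of the subunits, as summed TPM of large over small subunit members, stayed near 1 in most libraries. It ran from 0.759 in propyzamide 3 h replicate 3 to 1.21, with a median of 1.05. Group means were 1.05 in both unstimulated groups, 1.08 in vehicle 3 h, 0.983 ± 0.171 (SD, n = 4) in propyzamide 3 h, and 1.10 in both 24 h groups. In the 22 libraries left without the 2 that stand apart it lay between 0.959 and 1.21.

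Counts for the tests were normalized by the trimmed mean of M values (TMM) and tested with edgeR's quasi-likelihood test on all 6 groups. A gene entered the test with enough counts in at least 4 libraries, which left 3799 genes and 82 members: 76 core, 4 paralogs and 2 named as pseudogenes. Rpl5 was the core member left out. A call is an adjusted p (Benjamini-Hochberg over all 3799 genes) of 0.05 or less. Levels below are TMM-scaled CPM, counts set to a common library total. The base is the summed counts of the 3799 tested genes in a library, times its TMM factor. Fold changes are log2 with their standard error (SE).

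Stimulated libraries of propyzamide mice were compared between 24 h and 3 h. Of the 82 members tested, 21 rose and 0 fell, while 8.61% of all tested genes rose and 6.63% fell. These 21 were 12 large and 9 small subunit genes, all core. All 82 members had a log2 fold change above 0, as did 53.9% of all genes, and their median was 1.24. The median was 0.15 over all tested genes and 0.73 over the named protein-coding ones, so the members' median lay above a set that itself stood above 0. Large and small subunit members had medians of 1.25 and 1.18.

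Rpl4, a large subunit protein that lines the exit tunnel (chr9:64173375-64178666 on GRCm38, plus strand), was at 80.1, 83.0, 10.3 and 73.0 CPM at 3 h and at 135, 211, 185 and 209 CPM at 24 h. The groups did not overlap, and the 10.3 CPM is the library of few counts. Rpl4 rose by 1.56 ± 0.39 (SE; edgeR adjusted p = 0.017).

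Rps4x, the X-linked form of a small subunit protein (X:102184941-102189394, minus), was at 98.6, 78.6, 12.3 and 69.9 CPM at 3 h and at 94.4, 278, 199 and 243 CPM at 24 h. Its groups overlapped, since the lowest 24 h library was under the highest at 3 h, and it rose by 1.63 ± 0.42 (edgeR adjusted p = 0.018).

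Rpl37, a zinc-binding large subunit protein (chr15:5116645-5119140, plus), was at 11.8, 4.97, 0 and 3.84 CPM at 3 h and at 25.1, 39.4, 12.7 and 44.8 CPM at 24 h. Every 24 h library stood above every 3 h library, and its log2 fold change of 2.37 ± 0.61 was the highest of the called members (edgeR adjusted p = 0.0186). Rpsa, the small subunit protein also known as the laminin receptor (chr9:120127689-120132369, plus), was at 124, 83.1, 14.4 and 126 CPM at 3 h and at 208, 332, 235 and 265 CPM at 24 h. It rose by 1.56 ± 0.42 with no overlap (edgeR adjusted p = 0.021).

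The 3 stalk genes all rose. Rplp0, which anchors the stalk to the large subunit, was at 152, 114, 26.7 and 127 CPM at 3 h and at 119, 299, 245 and 317 CPM at 24 h, so its groups overlapped (1.21 ± 0.39, edgeR adjusted p = 0.0393). Rplp1 was at 60.1, 65.2, 4.11 and 62.8 CPM at 3 h and at 96.1, 166, 106 and 127 CPM at 24 h, with no overlap (1.33 ± 0.43, edgeR adjusted p = 0.0379). Rplp2 was at 28.9, 25.2, 2.06 and 40.0 CPM and then at 58.6, 92.4, 45.3 and 91.3 CPM, also apart (1.50 ± 0.46, edgeR adjusted p = 0.0324). The acidic proteins P1 and P2 bind P0 as pairs and recruit the GTPases of translation.

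**Figure D3:**
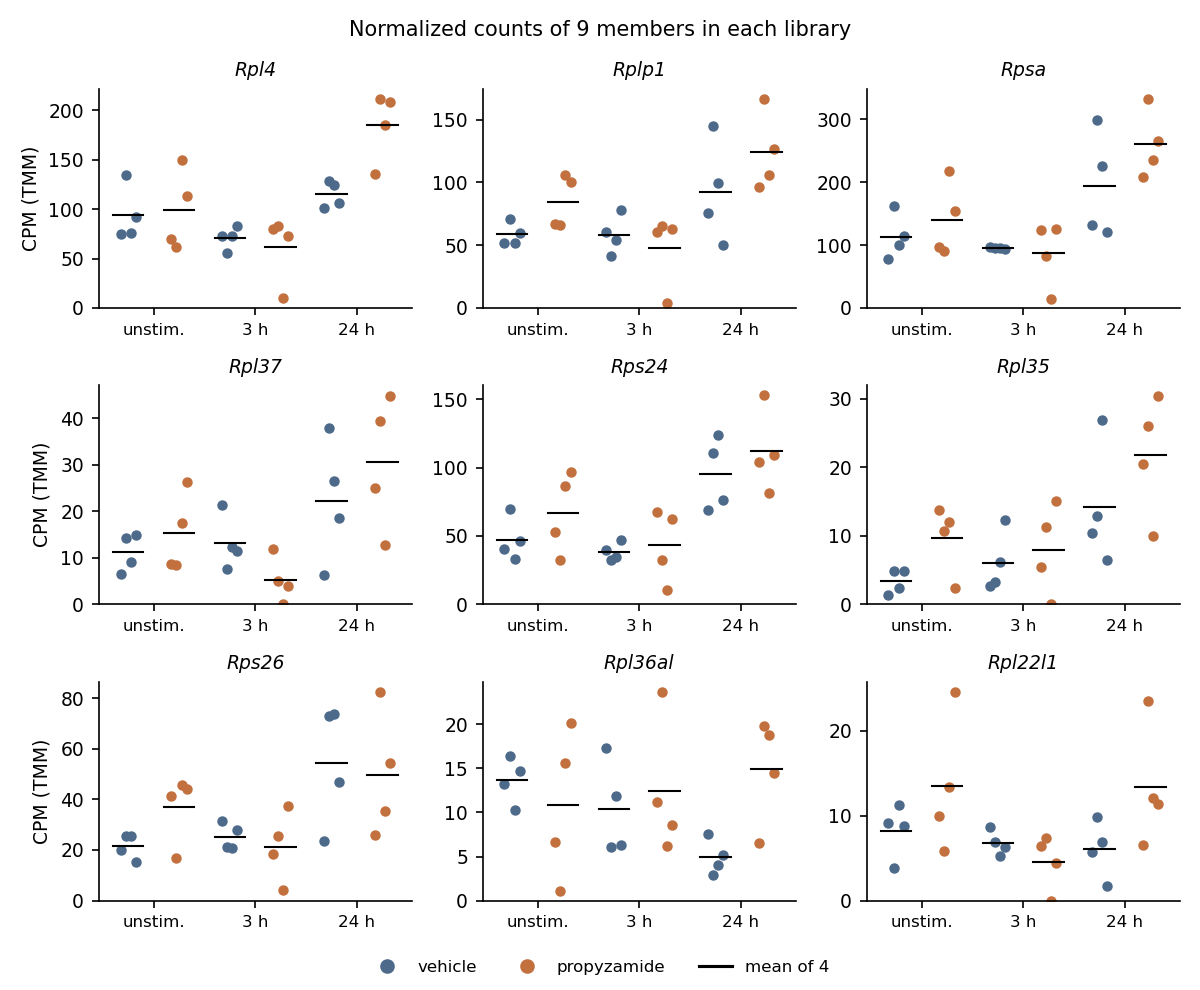
TMM-scaled CPM (vertical axis) of 9 members in the 4 libraries of each of the 6 groups (horizontal axis), each point 1 library and each short line the group mean. Rpl4 at 24 h in propyzamide lies between 135 and 211, above its 3 h libraries at 10.3 to 83.0.

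Large subunit genes that rose also included Rpl39 (1.90 ± 0.52), Rpl29 (1.74 ± 0.48), Rpl15 (1.73 ± 0.59), Rpl7a (1.50 ± 0.51), Rpl6 (1.42 ± 0.41) and Rpl3 (1.37 ± 0.40). Rpl39 lies in the exit tunnel, and Rpl3 reaches towards the site where peptide bonds form. Small subunit genes that rose also included Rps6 (1.76 ± 0.58), Rps7 (1.46 ± 0.50), Rps15 (1.33 ± 0.44), Rps24 (1.33 ± 0.41) and Rps18 (1.32 ± 0.45). Rps6 is the protein that the S6 kinases phosphorylate. Over the 21 members the edgeR adjusted p ran from 0.017 to 0.0458. Rpl15 was the last inside the threshold, at 0.0458, and Rps3a1 (1.18 ± 0.41) the first outside, at 0.0502.

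Several well-known members lay outside the threshold. Rps27 had 1.15 ± 0.45 (edgeR adjusted p = 0.0767), Rps19 1.18 ± 0.45 (0.0653 by the same test) and Rps14 0.99 ± 0.41 (0.0912). Rpl11, which with Rpl5 can bind the p53 regulator Mdm2, had 1.33 ± 0.53 (0.0787). Rps27a, made as a fusion with ubiquitin, had 0.97 ± 0.53 (0.19), and Rpl10, a late-joining protein of the large subunit, 1.43 ± 1.21 (0.407). Rpl22 had 0.78 ± 0.57 (0.334) and Rpl22l1 1.44 ± 0.58 (0.0803). Rps4l, a relative of Rps4x, holds no protein-coding transcript in the files and is not a member.

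The 4 and 4 libraries did not overlap for 36 members, 19 of the large and 17 of the small subunit, while 12.2% of all tested genes were apart in that direction. Of the 21 called, 15 were apart and 6 overlapped. At an unadjusted p under 0.05, 66 members were higher, against 20.3% of all genes. That number was 37 without propyzamide 3 h replicate 3 and 26 without propyzamide 24 h replicate 2.

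**Figure D4:**
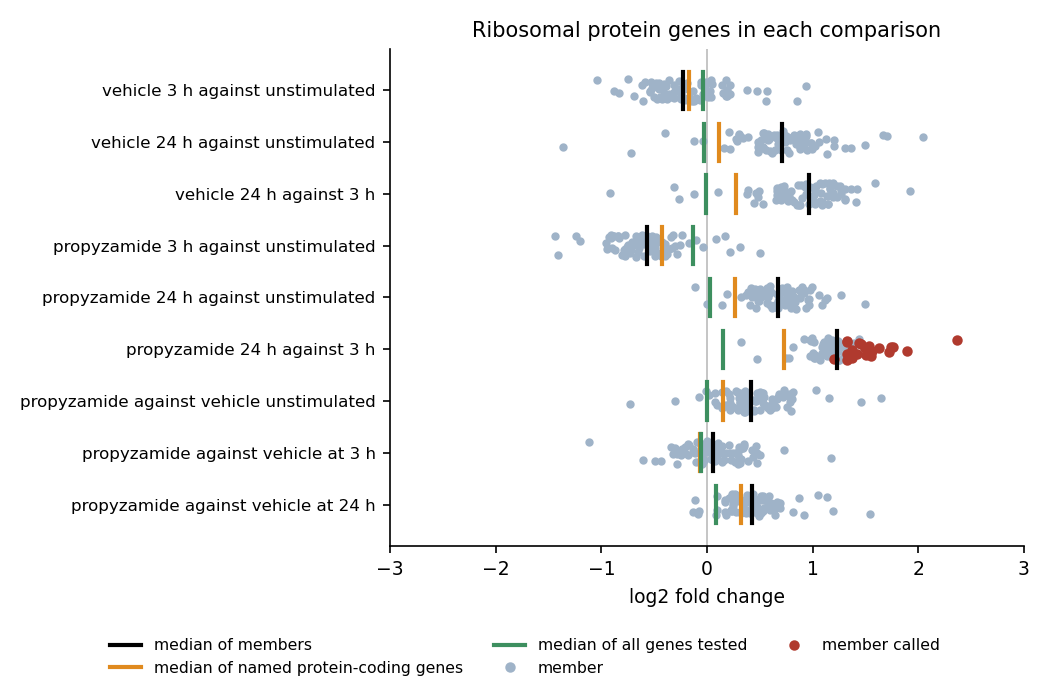
Log2 fold changes (horizontal axis, drawn from -3 to 3) of the 82 tested members in 9 comparisons (vertical axis), each point 1 gene, called members in red, with lines for the medians of the members, of named protein-coding genes and of all genes; 9 points lie off the scale. Of 24 h against 3 h, all 82 members lie above 0 in propyzamide, where the 21 marked members stand, and 77 of 82 in vehicle.

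The number of calls depended on single libraries and on the genes in the fit. Leaving out any 1 of the 24 libraries left 1 to 13 calls, except propyzamide unstimulated replicate 3 (15), vehicle 24 h replicate 2 (14) and propyzamide 24 h replicates 1 (25) and 3 (19). Over these fits, 1.65% to 8.55% of all genes were called higher. Without propyzamide 3 h replicate 3, 4 members were called (Rpl4, Rpl37, Rpl39 and Rps4x), against 2.19% of all genes called higher, and the members' median was 0.83. Without the 2 libraries that stand apart, 3 were called (Rpl4, Rpl37 and Rpl39), against 1.36% of all genes, and the members' median was 1.06. Without propyzamide 24 h replicate 2, Rpl4 alone was called (2.41% of all genes higher). Without propyzamide 3 h replicate 4, Rpl30 and Rpsa were (1.65%), and without propyzamide 24 h replicate 4, 2 members, Rpl4 among them (2.29%). Among named protein-coding genes alone, 1 member (Rpl37) was called, against 2.35% of all genes in that fit called higher, and the members' median was 0.78. DESeq2 called 71 members, limma-voom 45, and edgeR with the scaling of DESeq2 63, each including the 21. In that order, these settings called 20.9%, 9.29% and 18.3% of all tested genes higher, against 8.61% in the main fit. The scaling of DESeq2 in edgeR moved the median of all genes from 0.15 to 0.48.

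Other measures moved with this comparison. Summed T cell markers were at 238 to 660.0 CPM, here of named protein-coding counts, at 3 h and at 933 to 1657 at 24 h. B cell markers were at 389.8 to 2983 at 3 h, lowest in replicate 3, and at 3688 to 8071 at 24 h. Of the 10 B cell markers tested, 9 were above 0 and 1 below, and 5 rose, among them Cd79a, Cd79b, Ighd and Ighm. Of the 3 T cell markers tested, 3 were above 0, and Lck and Trbc2 rose. Epithelial markers were above 0 for 12 of 14 tested, with 0 called. Of 11 Paneth and goblet cell markers tested, 7 were above 0 and 4 below, and 1 rose and 2 fell. Their part in the result was not tested.

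In vehicle, 24 h against 3 h gave 0 calls among the 82 members with edgeR, as among all tested genes (0.0%). At an unadjusted p under 0.05, 39 members were higher, against 8.16% of all genes. That number was 9 without vehicle 24 h replicate 2, with a median of 0.68, and 19 and 21 without vehicle 3 h replicates 2 and 3. The members' median was 0.97, with 77 of 82 above 0 (49.7% of all genes), beside -0.01 over all genes and 0.27 over the named protein-coding ones. Groups did not overlap for 25 members (13 large, 12 small), against 5.19% of all genes. DESeq2 called 2 members (Rpl9 and Rps24), against 1.76% of all genes called higher, and limma-voom 0, against 0.158%. On these groups alone, edgeR called 17 of the 75 members tested there, against 3.32% of 1475 genes called higher.

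Rps24, a small subunit protein mutated in some cases of Diamond-Blackfan anaemia, was at 40.0, 32.5, 34.7 and 46.7 CPM at 3 h and at 69.0, 110.3, 123.8 and 76.6 CPM at 24 h in vehicle. The groups were apart, with a log2 fold change of 1.31 ± 0.41 (edgeR adjusted p = 0.174). Rpl9, of the large subunit, was at 38.8, 36.5, 29.2 and 34.7 CPM and then at 62.7, 138.6, 103.7 and 63.4 CPM (1.42 ± 0.51, edgeR adjusted p = 0.225). Rpl13 had 1.15 ± 0.41 (edgeR adjusted p = 0.218). None of these passed the threshold on all 6 groups.

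Rpsa was nearly level in vehicle at 3 h, with 97.3, 95.3, 95.7 and 93.9 CPM, and stood at 131, 299, 226 and 120 CPM at 24 h. Its groups were apart, as were those of Rpl4. Rpl4 went from 72.7, 55.5, 72.3 and 83.3 CPM to 101, 128, 124 and 106 CPM. All 21 members called in propyzamide were above 0 in vehicle, at 0.65 to 1.41. Whether the 2 exposures differ between 3 h and 24 h was not tested, so calls in propyzamide alone do not show a difference.

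Groups were apart in both exposures for 14 members, which is 56% of the 25 in vehicle and 38.9% of the 36 in propyzamide. The share of all tested genes apart in both was not counted, so this overlap has no background and nothing is concluded from it. Without the 2 libraries that stand apart, neither of them vehicle, edgeR called 3 members in vehicle, Rpl9 and Rps24 among them. In that fit 0.679% of all genes were called higher. T cell markers in vehicle were at 399.6 to 757 CPM of named protein-coding counts at 3 h and at 747 to 1175 at 24 h, and B cell markers at 2073 to 2634 and then at 3280 to 6720. Epithelial markers were at 2537 to 6226 at 3 h and at 469 to 764 at 24 h, with 14 of the 14 tested below 0 and 0 called. Their part in the result was not tested.

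Against unstimulated vehicle, the vehicle 24 h libraries gave 0 calls among the members, against 0.421% of all genes. At an unadjusted p under 0.05, 16 members were higher and 1 lower, where 3.45% and 3.71% of all genes were. The 16 became 4 without vehicle 24 h replicate 2 or vehicle unstimulated replicate 3, 5 without vehicle unstimulated replicate 1, 10 without vehicle 24 h replicate 3 and 32 without propyzamide 3 h replicate 3, and the 1 became 0 without vehicle 24 h replicate 2 or 3. The median was 0.71, with 76 of 82 above 0, against 47.9% of all genes, and the median over named protein-coding genes was 0.11. Without vehicle 24 h replicate 2 the members' median was 0.46. Groups were apart for 9 higher members and for 1 lower one, against 2.97% and 4.5% of all genes. DESeq2 and limma-voom called 0.

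Cell type markers moved with this comparison, given here as summed CPM of named protein-coding counts. Epithelial markers were at 4500 to 5415 unstimulated and at 469 to 764 at 24 h. All 14 of them that were tested were below 0, with a median of -3.29, and 2, Elf3 and Olfm4, fell. The 9 plasma cell markers were at 8779 to 15192 and then at 3139 to 3631, where Tnfrsf17 was at 0. Of the 5 tested, 3 were below 0 and 1, Jchain, fell. Paneth and goblet cell markers were at 21840.3 to 33805 and then at 9006 to 14982, with 10 of 11 tested below 0 and 0 called. T cell markers were at 349 to 592 and then at 747 to 1175, and B cell markers at 1989 to 4883 and then at 3280 to 6720, with 0 called in either list. Their part in the result was not tested.

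Rpl35, a protein near the exit of the tunnel (chr2:39001580-39005624, minus), had the smallest p here. It was at 1.30, 4.89, 2.38 and 4.79 CPM unstimulated and at 10.4, 12.8, 26.9 and 6.42 CPM at 24 h. The groups were apart, and the log2 fold change was 2.05 ± 0.63 (edgeR adjusted p = 0.217). Rpl28 was tightly grouped unstimulated, at 6.94, 7.62, 6.19 and 6.86 CPM, and was at 14.4, 34.1, 18.01 and 9.51 CPM at 24 h, again apart (1.50 ± 0.52, edgeR adjusted p = 0.325). Rps26, which contacts the message near the exit channel, was at 19.99, 25.5, 25.6 and 15.3 CPM and then at 23.5, 72.9, 73.5 and 47.0 CPM, with overlap (1.31 ± 0.45, edgeR adjusted p = 0.316).

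In propyzamide, 24 h against unstimulated also gave 0 calls (0.079% of all genes), with 8 members higher at an unadjusted p under 0.05, against 5.92% of all genes. The 8 ranged from 2 (without propyzamide 24 h replicate 2) to 23 (without propyzamide 24 h replicate 3) with 1 library left out, and were 17 without propyzamide 3 h replicate 3. They were 13 without propyzamide unstimulated replicate 3, and 3 to 5 without vehicle unstimulated replicate 4, propyzamide unstimulated replicate 1 or 2, vehicle 24 h replicate 3 or propyzamide 24 h replicate 4. The median was 0.67, beside 0.27 over the named protein-coding genes, and 81 of 82 members were above 0, against 51.4% of all genes. Without propyzamide 24 h replicate 2 the median was 0.43. DESeq2 and limma-voom called 0. Epithelial markers were at 3966 to 14502 CPM of named protein-coding counts unstimulated. At 24 h they were at 488 to 1590, and at 9729 in the deepest library (14 of 14 tested below 0, 0 called). T cell markers were at 349 to 706 and then at 933 to 1657 (3 of 3 above 0, 0 called). Their part in the result was not tested. Groups were apart, higher at 24 h, for 5 of the 82 members, against 4.32% of all genes. Rpl23, at the subunit interface, was at 32.1, 16.03, 39.1 and 27.3 CPM unstimulated and at 60.0, 69.8, 54.2 and 59.0 CPM at 24 h, with no overlap (1.09 ± 0.40, edgeR adjusted p = 0.246). Rps23, in the decoding centre, had 1.27 ± 0.49 (edgeR adjusted p = 0.256) and Rpl4 0.90 ± 0.38 (edgeR adjusted p = 0.289). Rpl12 was the 1 member below 0, at -0.11 ± 0.73. The comparisons with unstimulated and 3 h libraries share their 24 h libraries, so they are not independent of each other.

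At 3 h against unstimulated the members' medians lay below 0. In vehicle there were 0 calls with edgeR, DESeq2 or limma-voom (0.29% of all genes with edgeR), and 1 member was lower at an unadjusted p under 0.05, against 4.29% of all genes. That member, Rps27rt, a retrogene copy of Rps27, had counts in 1 unstimulated library and 0 in all 4 at 3 h, so no fold is given. The median was -0.23, beside -0.17 over named protein-coding genes, and 21 of 82 were above 0, against 46.9% of all genes. Without vehicle unstimulated replicate 2 the median was -0.006, and without vehicle unstimulated replicate 3 it was -0.35. Rplp0 had -0.69 ± 0.39 (edgeR adjusted p = 0.966) and Rpl9 -0.88 ± 0.51 (edgeR adjusted p = 0.975). On the other side were Rpl35 at 0.85 ± 0.68, Rpl12 at 0.94 ± 0.82 and Rpl11 at 0.56 ± 0.53, each with an edgeR adjusted p of 0.998.

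In propyzamide, 3 h against unstimulated gave 0 member calls with edgeR, DESeq2 or limma-voom (0.711% of all genes with edgeR), and 7 members, all lower, had an unadjusted p under 0.05, against 13.4% of all genes in either direction. The median was -0.57, beside -0.42 over named protein-coding genes, with 6 of 82 above 0, against 44.9% of all genes. Without propyzamide 3 h replicate 3 the median was -0.22 and 0 members had such a p. Without propyzamide unstimulated replicate 4 the median was -0.37 with 0 such members, and 2 and 11 members were lower without propyzamide unstimulated replicate 3 and propyzamide 3 h replicate 1. Groups were apart, lower at 3 h, for 2 of the 82 members, against 5.16% of all genes. Rpl29 was at 36.4, 28.2, 47.2 and 55.7 CPM unstimulated and at 14.2, 24.9, 2.06 and 26.3 CPM at 3 h, with no overlap (-1.24 ± 0.48, edgeR adjusted p = 0.269). Rpl22l1 had -1.44 ± 0.58 (edgeR adjusted p = 0.284) and Rps4x -0.95 ± 0.41 (edgeR adjusted p = 0.331). Rpl7l1, at 0.50 ± 0.73, and Rpl31, at 0.22 ± 0.72, were among the 6 above 0.

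Other lists moved between unstimulated and 3 h as well, again as summed CPM of named protein-coding counts. Paneth and goblet cell markers were at 21840.3 to 33805 unstimulated and at 8866 to 14003 at 3 h in vehicle, and at 17079 to 45741 and then at 6895 to 17108 in propyzamide. Of the 11 tested, 9 were below 0 and 1, Itln1, fell in vehicle, and 11 were below 0 and 4, Defa24, Itln1, Lyz1 and Mptx2, fell in propyzamide. All 16 mitochondrially encoded genes tested were below 0 in both exposures, with 0 called in vehicle, while 5, mt-Co1, mt-Cytb, mt-Nd4, mt-Nd5 and mt-Rnr2, fell in propyzamide. Of the granulocyte markers, 4 of 4 tested were above 0 and S100a9, at 0 in both unstimulated groups, rose in both exposures. Epithelial markers were below 0 for 12 of 14 tested in vehicle and 14 of 14 in propyzamide, with 0 called. Their part in the members' values was not tested.

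Propyzamide was compared with vehicle at each time. Unstimulated, 0 members were called with edgeR, DESeq2 or limma-voom, as were 0.0% of all genes with edgeR. The median was 0.42, beside 0.16 over named protein-coding genes, with 77 of 82 above 0 (50.1% of all genes), and 3 members were higher at an unadjusted p under 0.05, against 1.5% of all genes. With 1 library left out, the 3 ranged from 0 (without vehicle unstimulated replicate 1 or 3) to 7 (without propyzamide 3 h replicate 3), and the median from 0.24 (without propyzamide unstimulated replicate 4) to 0.56. Without propyzamide unstimulated replicate 3 the median was 0.28. Epithelial markers were above 0 for 14 of 14 tested (median 0.89) and Paneth and goblet cell markers for 11 of 11, with 0 called. B cell markers were above 0 for 4 of 10 tested. Their part in the members' values was not tested. Rpl28 was the 1 member whose groups did not overlap, against 1.03% of all genes, at 26.0, 12.6, 12.9 and 9.97 CPM in propyzamide beside the tight vehicle values above (1.15 ± 0.52, edgeR adjusted p = 1). Rpl35 was at 13.8, 10.6, 12.1 and 2.40 CPM in propyzamide, with overlap (1.46 ± 0.64, edgeR adjusted p = 1). Rpl12 had 1.65 ± 0.78, while Rpl36al had -0.31 ± 0.54 and Rps27rt -0.73 ± 1.48 (edgeR adjusted p = 1 for each).

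At 3 h, 0 members were called and 0 had an unadjusted p under 0.05 with edgeR, against 0.0% of all genes called and, unadjusted, 0.632% higher and 2.37% lower. DESeq2 and limma-voom also called 0. The median was 0.05, with 47 of 82 above 0 (45.4% of all genes), and 0.40 without propyzamide 3 h replicate 3. It lay below 0 without propyzamide 3 h replicate 1, 2 or 4, down to -0.10. Rpl37 had -1.12 ± 0.64, Rpl27 -0.60 ± 0.63 and Rpl22l1 -0.43 ± 0.62, while Rpl17 had 1.18 ± 0.74 and Rpl22 0.73 ± 0.63 (edgeR adjusted p = 1 for each).

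At 24 h, 0 members were called with edgeR, DESeq2 or limma-voom, as were 0.0% of all genes with edgeR. Of the 82 members, 78 were above 0, against 53.2% of all genes, with a median of 0.42 beside 0.32 over the named protein-coding genes. At an unadjusted p under 0.05, 2 were higher, Rpl36al and Rpl9-ps6, against 4.47% of all genes. The median was 0.23 without vehicle 24 h replicate 1 and 0.18 without propyzamide 24 h replicate 2. Rpl9-ps6 had 0 counts in vehicle 24 h and in unstimulated propyzamide and counts in 6 of the 24 libraries, so no fold is given. Rps26 (-0.11 ± 0.44), Rpl36a (-0.13 ± 0.53) and Rpl22 (-0.09 ± 0.55) had the smallest p of the members below 0. The epithelial markers were at 933, 488, 9729 and 1590 CPM of named protein-coding counts in propyzamide 24 h, where 9729 is the deepest library. They were at 469 to 764 in vehicle 24 h, and their part in the result was not tested.

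Whether the response to anti-CD3 differed between exposures was tested as an interaction. The interaction at 3 h cannot be told apart from the index, while at 24 h both exposures carried the same index at each time. At 3 h, 0 members were called and 0 had an unadjusted p under 0.05 with edgeR (0.0% of all genes called, and 1.42% higher and 1.82% lower unadjusted), and the median difference was -0.32. Without propyzamide 3 h replicate 3 this median was 0.02, and without the 2 libraries that stand apart it was -0.04, with 36 of 81 members above 0. Over all 24 single omissions it ran from -0.52 to 0.02. Rpl12 had -2.14 ± 1.15, Rpl37 -1.56 ± 0.85, Rpl29 -1.10 ± 0.68 and Rpl17 0.81 ± 1.01 (edgeR adjusted p = 0.997 for each). At 24 h, 0 were called (0.0% of all genes) and 2, Rpl36al and Rpl9-ps6, were higher at an unadjusted p under 0.05, against 1.32% of all genes. The median was -0.03, with either sign when 1 library was left out (-0.25 to 0.18), and 0.07 without the 2 libraries. Rpl4 had 0.61 ± 0.53, Rps26 -0.89 ± 0.63, Rpl36a -0.93 ± 0.76 and Rpl35 -0.92 ± 0.86 (edgeR adjusted p = 1 for each). DESeq2 and limma-voom called 0 at both times.

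The paralogs were read beside their core partners. Rpl36al, an autosomal paralog of the X-linked Rpl36a (chr12:69182731-69184083, minus), was at 13.2, 16.4, 10.3 and 14.8 CPM in unstimulated vehicle and at 7.51, 2.96, 4.06 and 5.16 CPM in vehicle 24 h. It was the 1 member lower with no overlap, where 4.5% of all tested genes were (-1.36 ± 0.59, unadjusted p = 0.0285, edgeR adjusted p = 0.593). In propyzamide 24 h it was at 6.51, 19.9, 18.8 and 14.5 CPM (1.54 ± 0.59 over vehicle 24 h, edgeR adjusted p = 0.379, with overlap). The interaction at 24 h was 1.85 ± 0.80 (edgeR adjusted p = 1).

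Rpl36a was at 11.5, 14.03, 12.5 and 14.2 CPM in unstimulated vehicle and at 12.9, 49.0, 28.6 and 46.2 CPM in vehicle 24 h, so that pair of groups overlapped. In vehicle, 24 h against 3 h gave 1.20 ± 0.57 for Rpl36a and -0.92 ± 0.63 for Rpl36al (edgeR adjusted p = 0.391 and 0.551). No test compared the 2 genes.

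Rpl22l1, which can replace Rpl22 in the large subunit, was at 5.77, 9.86, 6.85 and 1.72 CPM in vehicle 24 h and at 6.51, 23.5, 12.1 and 11.4 CPM in propyzamide 24 h (1.13 ± 0.57, edgeR adjusted p = 0.49). Rpl22 was at 15.7, 40.3, 12.6 and 25.8 CPM in vehicle 24 h and at 16.3, 36.1, 18.01 and 16.6 CPM in propyzamide 24 h, nearly the same range. Per length the pair stood at 15.1 TPM for Rpl22l1 and 24.7 TPM for Rpl22. Rps27l, a p53-responsive paralog of Rps27, had 8.40 TPM and did not enter the test.

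Reads from ribosomal protein genes can be shared with their many retrocopies, which bears on every level above. Over all members, the median gene had 52.7% of its stretches of 31 bases in some other gene model as well (range 0% to 99.0%), and 51 members had at least 50%. Related pseudogene models numbered 305, and 72 members had at least 1. They held 48065 counts beside 288508 in the members, or 14.3% of both together. These counts are pooled over the 24 libraries, and the deepest library alone held 184991 of the members' counts. This share was 34.1% in propyzamide 3 h replicate 3, 13.8% in the deepest library and 13.0% to 18.03% in the 22 other libraries.

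For 8 members the related models, which leave out models that are members themselves, held most of the family's counts. Rpl5 (chr5:107900502-107909005, plus) had 208 counts of its own and 7769 in Gm15500, so that 97.4% of the family lay outside the gene. Rpl12 had 487 counts beside 4397 in Gm10275 (90.1% outside). The others were Rpl27a (69.0%), Rps23 (63.0%), Rps12 and Rpl27 (59.8% each), Rpl37 (59.2%) and Rpl28 (54.9%). Rpl10 had no related model, but held 1678 counts beside 3942 in Rpl10-ps3, a member named as a pseudogene. Of the stretches of 31 bases in Rpl10, 85.7% were also in other genes. Without the deepest library, own counts were 70 for Rpl5, 169 for Rpl12, 450 for Rpl10 and 1148 for Rpl10-ps3. The low levels of Rpl5 and Rpl12, and the values of Rpl37, Rpl28 and Rpl10 above, are therefore uncertain. Rpl4, Rps15, Rps18 and Rplp2, all called, had no related model. Other genes still held 32.2%, 50.7%, 90.75% and 38.1% of their stretches of 31 bases, in that order. With counts of related models added, 37 members were called in propyzamide between 24 h and 3 h, 20 of the 21 among them. In that fit 9.14% of all tested genes were called higher.

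**Figure D5:**
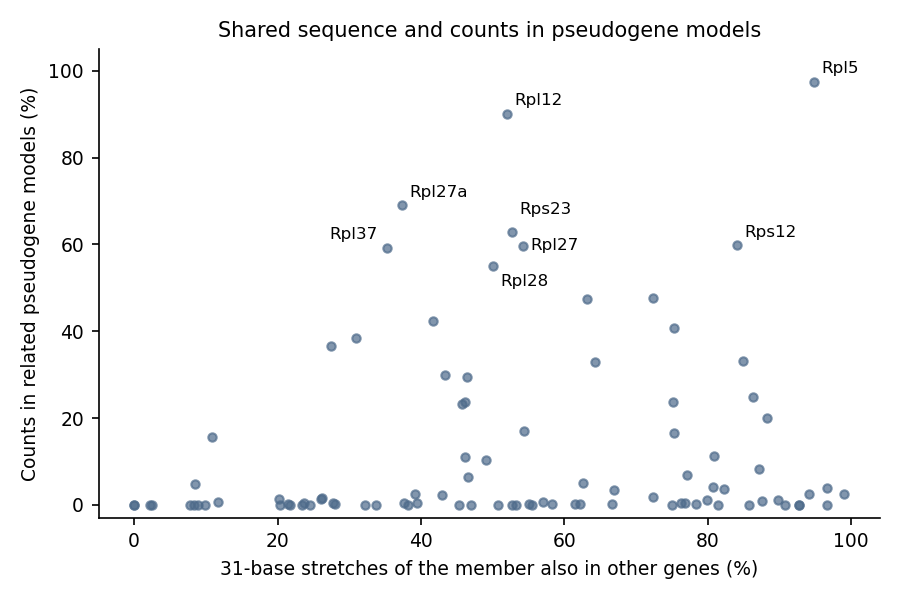
Percent of family counts in related pseudogene models (vertical axis) against percent of a member's stretches of 31 bases that also occur in other genes (horizontal axis), each point 1 member. Rpl5 (97.4%) and Rpl12 (90.1%) stand highest.

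Genes that work beside the ribosomal proteins were read from lists. Of the ribosomal proteins outside the name rule, Fau, made as a fusion with a ubiquitin-like protein, had 1.19 (edgeR adjusted p = 0.0707) in propyzamide between 3 h and 24 h. Rack1, a scaffold protein of the small subunit head, had 1.05 (edgeR adjusted p = 0.0874). In vehicle both were above 0 and neither was called.

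Translation factors and other products of TOP messages had 21 of 22 genes tested, of which 9 rose and 0 fell in propyzamide between 3 h and 24 h, where 8.61% of all tested genes rose and 6.63% fell. Their median was 1.19, beside 0.15 over all genes, and 20 of 21 were above 0, against 53.9% of all genes. Naca, a chaperone of nascent chains, had 2.24 ± 0.57 (edgeR adjusted p = 0.018), Eif3h, an initiation factor subunit, 2.05 ± 0.54 (edgeR adjusted p = 0.0201), Eef1a1, the main elongation factor, 1.68 ± 0.48 (edgeR adjusted p = 0.0261), and Tpt1, a classic TOP message, 1.49 ± 0.39 (edgeR adjusted p = 0.0185). In vehicle all 21 were above 0, against 49.7% of all genes, with a median of 0.83 and 0 calls.

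Ribosome biogenesis genes, which make and assemble the particles in the nucleolus, had 17 of 40 tested and 0 called in either exposure between 3 h and 24 h. Their median was 0.22 in propyzamide and -0.40 in vehicle, beside 0.15 and -0.01 over all genes. Of 14 initiation and mTORC1 genes, 3 were tested and 0 called. Mitochondrial ribosomal proteins, a separate set imported into mitochondria, had 11 of 78 tested: 0 rose, and Mrpl48 fell by 1.07 ± 0.35 on the log2 scale (edgeR adjusted p = 0.0399) in propyzamide, where the median was 0.65. Of the mitochondrially encoded genes 16 of 37 were tested, and mt-Nd5 (1.06) and mt-Co1 (0.96) rose in that comparison.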

How the data were processed

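The authors made the deposited transcript tables with kallisto (version not given in the sources used here) on GRCm38, per the submitters' processing notes, and each holds estimated counts and TPM per the file headers. Counts and TPM were summed by gene over all transcripts, and estimated counts were rounded to whole numbers for the tests. The main test was edgeR 4.0.16, run under R 4.3.3 (filterByExpr, TMM, quasi-likelihood, 1 coefficient per group over 24 libraries), with Benjamini-Hochberg adjustment over 3799 genes. Total counts ran from 438750 to 9812460 per library. The fits were run on simulated counts with known changes, drawn around a common mean level per gene and scaled to library size. That simulation held no library of unusual composition, so it says nothing about the libraries that stand apart. Gene positions came from GENCODE vM21, which shares 140751 of the 142604 transcripts, and start windows from RefSeq.

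The members, gene lists and rules were chosen with earlier results of these data known. Members named in the text are those called in any comparison, the 3 higher and 3 lower with the smallest p per comparison, the 10 highest and 5 lowest by TPM, a panel of textbook genes, and up to 4 genes per list. Members with 0 counts in a whole group compared are given as counts, since their fitted fold has no meaning. Some genes that the rules take are not reported here. Alternatives were the scaling of DESeq2 (RLE), no filter on low counts, only the groups compared, DESeq2 1.42.0, limma 3.58.1 (voom with quality weights, and trend on log2(TPM + 1)), named protein-coding genes only, protein-coding transcripts only, counts of pseudogenes named after a member added, and each library left out. Adding related pseudogenes (at least 50% of stretches of 31 bases shared) and leaving out 2 libraries were chosen after seeing the data.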

Additional observations from a re-analysis of the deposited data

Results flagged for a closer look

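Of 120 groups of 4 libraries examined, 8 held a library far from the other 3 by Dixon's criterion, and chance alone flags about 1 in 20. Propyzamide 3 h replicate 3 gave 3 of them. Its ribosomal protein share of named protein-coding counts was 0.957%, with the other 3 libraries at 5.68% to 6.21%. Its Rpl4 level was 10.3 CPM (others 73.0 to 83.0), and its Rplp1 level was 4.11 CPM (others 60.1 to 65.2). This library held 172 counts in all members, so 1 count is a large step for a single gene there. Its total was 438750 counts, beside 534663 in vehicle 3 h replicate 1, which held 1903 counts in members.

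The other 5 were spread over 5 libraries. Rps26 was at 16.7 CPM in propyzamide unstimulated replicate 2 (others 41.3 to 45.5). Rpl22 was at 36.1 CPM in propyzamide 24 h replicate 2 (others 16.3 to 18.01). Rpl5 was at 2.19 CPM in vehicle 3 h replicate 3 and at 0 in the other 3. Rps6 was at 23.9 CPM in vehicle unstimulated replicate 4 (others 47.1 to 48.0) and at 140.4 CPM in vehicle 24 h replicate 2 (others 46.5 to 53.5).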

How the results depend on the processing

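No paired analysis was possible because the labels give the libraries no replicate numbers. Calls among members in propyzamide at 24 h against 3 h numbered 21, where 8.61% of all tested genes were called higher. They came to 63 with RLE scaling (18.3% of all genes higher), 71 with DESeq2 (20.9%) and 45 with limma-voom (9.29%). With limma-trend on TPM they came to 36 (11.0%) and with related pseudogenes added to 37 (9.14%). They came to 6 with no filter on low counts (0.261%) and 2 with only the groups compared (4.96%). Among named protein-coding genes 1 was called (2.35%), and without the 2 libraries that stand apart 3 were (1.36%). With 1 library left out they numbered 1 to 25 (1 to 13 for 20 of the 24 libraries), with 1.65% to 8.55% of all genes higher. In vehicle the 0 calls at 24 h against 3 h became 17 with only the groups compared (3.32% of all genes higher), 2 with DESeq2 (1.76%) and 3 without the 2 libraries (0.679%). With no filter, 1 member was called in vehicle at 3 h against unstimulated (Rps27rt) and 1 in the interaction at 24 h (Rpl9-ps6), both with 0 counts in a whole group. Under limma-trend on TPM the members' median became 2.15 in propyzamide at 24 h against 3 h, 1.29 in propyzamide against vehicle at 24 h and 1.01 in the interaction at 24 h. The members' share became 6.42% in unstimulated vehicle and 6.42% in vehicle 3 h with protein-coding transcripts only, and 5.35% in vehicle 3 h with related pseudogenes. The subunit ratio became 1.18, 1.12 and 1.14 in unstimulated vehicle, unstimulated propyzamide and vehicle 24 h with related pseudogenes, and 1.01 and 1.02 in vehicle 24 h and propyzamide 24 h with named pseudogenes. The cause of these shifts was not tested.

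No called member changed direction under any alternative, but 57 values of members that were not called did, most of them smaller than their SE. In propyzamide against vehicle at 24 h, Rps26 became 0.060 with DESeq2 or RLE scaling, 0.058 with no filter, 0.056 without the 2 libraries, 0.79 with limma-trend, 0.20 with limma-voom and 0.21 with either pseudogene set, and ran from -0.49 (without propyzamide 24 h replicate 2) to 0.089 with 1 library left out. Rpl36a there became 0.046 with DESeq2, 0.052 with RLE, 0.063 with no filter, 0.011 with only the groups compared, 0.057 and 0.13 with named and related pseudogenes, 0.81 with limma-trend and 0.17 with limma-voom, and ran from -0.49 to 0.080. Rpl22 there became 0.086 with DESeq2, 0.093 with RLE, 0.10 with no filter, 0.052 with only the groups compared, 0.031 without the 2 libraries, 0.76 with limma-trend and 0.16 with limma-voom, and ran from -0.46 to 0.28. Rpl12 in propyzamide at 24 h against unstimulated became 0.056 (DESeq2), 0.046 (RLE), 0.52 (limma-trend), 0.21 (limma-voom) and 0.71 (related pseudogenes), and ran from -0.38 to 0.62. In propyzamide at 3 h against unstimulated, Rpl31 became -0.50 and -0.51 with named and related pseudogenes and -0.047 with only the groups compared, and ran from -0.23 to 1.02 with 1 library left out, while Rpl7l1 became -0.29 (limma-trend) and ran from -0.11 to 1.11. Under limma-trend, Rpl11 (-0.073) and Rpl12 (-0.018) in vehicle at 3 h, Rpl28 in vehicle at 24 h against unstimulated (-0.12), Rpl17 in the interaction at 3 h (-0.78), and Rpl35 (0.39), Rpl36a (0.32) and Rps26 (0.23) in that at 24 h also turned. So did Rpl17 with limma-voom (-0.38), Rpl11 with related pseudogenes (-0.081), and, in unstimulated propyzamide against vehicle, Rpl36al with related pseudogenes (0.050) and Rps27rt with limma-voom (0.54). Rps27rt ran from -7.05 to 6.27 with 1 library left out.

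Over all 94 members, 22 libraries held 1791 to 10686 counts, so a member of low level rests on few counts. The filter on low counts left 12 members untested, among them Rpl5, whose family counts lay mostly in a related model.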
